A study of Mus musculus with 5 samples.

Results

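Cytosolic ribosomal protein genes are the genes that encode the protein subunits of the ribosome outside the mitochondria. They were taken as the protein-coding genes with the symbol Rpl or Rps and a number, or one of Rplp0, Rplp1, Rplp2 and Rpsa, with S6 kinases and mitochondrial ribosomal proteins left out. Of 89 genes with such a symbol, 6 are not protein-coding in the annotation (Rps3a2, Rps3a3, Rps4l, Rps12l1, Rpl6l and Rpl32l). This left 83 genes of 56691 listed gene IDs, 32 of the small subunit and 51 of the large subunit. All 83 had counts, and 81 had enough to be tested; the testis paralogue Rpl10l and Rpl24 did not. Fau, which encodes a ribosomal protein fused to a ubiquitin-like protein, and Rack1, a scaffold bound to the small subunit, lie outside the symbol rule and are described with other genes of the pathway.

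A ribosome joins a small subunit, which reads the mRNA, to a large subunit, which forms the peptide bonds. Each is a core of ribosomal RNA clothed in proteins that are made in near equal numbers, so their genes are usually expressed together. Many of their mRNAs begin with a run of pyrimidines, the terminal oligopyrimidine (TOP) motif, through which mTORC1 signalling controls their translation. In lymphocytes ribosome production goes up when a cell is activated and grows.

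The cells were natural killer (NK) cells of mouse spleen, lymphocytes that kill infected and tumour cells. The RNA came from cells labelled Fli1 KO (3 libraries) after CRISPR editing of Fli1, a transcription factor of the ETS family, or from cells labelled NTC (2 libraries), the control. The sources used here do not give strain, age, sex, guide, editing rate, culture or time after editing, nor whether libraries came from separate animals, so p-values reflect the spread between these 5 libraries and nothing wider. Libraries were made by probe capture from 10 ng of total RNA, and whole-gene counts summed to between 4718390 and 5643791 per library.

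Fli1 RNA was present throughout, at 390, 320 and 361 CPM (counts-per-million after TMM scaling of the libraries) in Fli1 KO 1 to 3, against 322 and 279 CPM in NTC 1 and 2. Counts over a whole gene cannot show whether the edit took place. The 12 NK markers, such as Ncr1, Klrb1c and Eomes, were expressed in every library, and T cell markers summed to 43.7 to 47.8 CPM in Fli1 KO and 47.4 to 48.7 CPM in NTC. All marker sums cover only markers with enough counts to be tested, which for B cells were 5 of 6. Those B cell markers summed to 33.9 to 38.0 CPM in Fli1 KO and 36.8 to 42.6 CPM in NTC. Markers of stroma and endothelium summed to 39.4 to 46.3 CPM in Fli1 KO and 39.4 to 39.5 CPM in NTC. The 6 tested of 9 myeloid markers summed to 23.4 to 24.6 CPM in Fli1 KO and 27.4 to 28.8 CPM in NTC. The 4 tested of 7 markers of erythroid cells and platelets summed to 10.1 to 12.1 CPM in Fli1 KO and 15.6 to 25.1 CPM in NTC. Hba-a1, which is not in that sum, was listed at 0 in both NTC libraries. The myeloid sum and the erythroid and platelet sum were lower in every Fli1 KO library, but single markers lay at 10.7 CPM or below. A marker can have enough counts to be tested through the group in which it is high alone. C1qa, in the myeloid sum, had 2, 3 and 8 counts in Fli1 KO, against 12 and 11 in NTC. Neither sum is therefore read as a result. Of 6 myeloid markers tested, 2 had log2 fold changes above 0, and of 4 erythroid and platelet markers 0 did. In NTC 2, Ppbp (10.7 CPM) and Pf4 (6.06 CPM) made up much of the latter sum. What part these markers have in the results was not tested. Xist ranged from 1268 to 1439 CPM in Fli1 KO and from 846 to 1117 CPM in NTC, and none of the Y-linked genes Ddx3y, Eif2s3y, Kdm5d and Uty had over 6 counts in any library. No sample pair agreed within sampling noise.

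The upstream ends of these genes carry the sequence signals for which the family is known. For 63 of the 83 genes RefSeq (GRCm38.p6) gave a promoter window of 250 bases before to 50 bases after the start. Stretches from 50 bases before to 20 bases after the start are shown for 5 genes with large fold changes (Rps4x, Rps27l, Rpl22l1, Rpl38 and Rpl36a) and for 3 of the genes discussed for their roles (Rps6, Rpl11 and Rplp0), each 5′ to 3′ on the strand of the gene. Capitals mark CGGAAG or its reverse complement CTTCCG, a word that contains the GGAA core bound by ETS factors. Other GGAA cores, such as those in the stretches of Rps4x and Rpl36a, are not marked and were not counted.
Rps4x (chrX:102189372-102189441, minus strand): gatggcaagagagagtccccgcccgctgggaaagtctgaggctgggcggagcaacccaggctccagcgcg
Rps27l (chr9:66946036-66946105, plus strand): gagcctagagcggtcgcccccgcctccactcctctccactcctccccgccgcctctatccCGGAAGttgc
Rpl22l1 (chr3:28805458-28805527, plus strand): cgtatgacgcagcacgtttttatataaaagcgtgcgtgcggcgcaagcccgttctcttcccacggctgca
Rpl38 (chr11:114668530-114668599, plus strand): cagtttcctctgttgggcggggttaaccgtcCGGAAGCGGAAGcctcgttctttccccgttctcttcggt
Rpl36a (chrX:134585604-134585673, plus strand): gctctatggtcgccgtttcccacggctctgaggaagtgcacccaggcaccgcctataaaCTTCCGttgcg
Rps6 (chr4:86857348-86857417, minus strand): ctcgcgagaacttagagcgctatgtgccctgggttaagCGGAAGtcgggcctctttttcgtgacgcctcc
Rpl11 (chr4:136053374-136053443, minus strand): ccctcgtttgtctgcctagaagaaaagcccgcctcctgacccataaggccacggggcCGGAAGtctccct
Rplp0 (chr5:115559417-115559486, plus strand): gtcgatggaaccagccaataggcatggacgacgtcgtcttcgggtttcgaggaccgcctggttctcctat

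CGGAAG stood on either strand in 42 of the 63 promoter windows (66.7%), against 22.2% of all 16521 protein-coding promoters and 33.3% of the 2235 promoters of other genes at a similar expression level. The longer ETS site CCGGAAGT, which includes the shorter word, stood in 12 of the 63 (19.0%, against 5.54% and 8.19%). A run of at least 8 C or T between 10 bases before and 50 bases after the start stood in 41 of the 63 (65.1%), against 20.5% of all promoters and 21% of those at a similar level. The YY1 word AAGATGGC stood in 5 (7.94%, against 3.27% and 5.46%), the TATA word TATAAA in 6 (9.52%, against 12.9% and 5.86%) and the E-box CACGTG in 5 (7.94%, against 8.09% and 10.7%). The words were chosen after sequences of the family had been seen, and a match in a window is a description, not a binding site. The promoter of Rps4x held CGGAAG nowhere in its window, and that of Rpl38 held 2 copies side by side in the stretch shown. The stretch of Rpl22l1 shows TATAAA upstream of the start and that of Rpl36a just after it.

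Ribosomal protein genes were among the strongly expressed genes of these cells. Of the 83, 65 averaged at least 100 CPM, and 78 exceeded background by over 3 times, where background is the count per kb of exon on 1957 olfactory and vomeronasal receptor genes (7.21 to 9.33), which NK cells do not use. Divided by transcript length, the median level was 268 CPM per kb over all 83, 387 for small subunit genes and 226 for large subunit genes. Libraries came from probe capture, so levels compared between genes, here and below, may also reflect how well each gene was captured. That was not tested. Among the highest were Rplp1, a stalk protein that recruits elongation factors (1411 ± 239 CPM per kb, SD over the 5 libraries), Rps12 of the small subunit head (1192 ± 137), Rps15, also of the head (1105 ± 189), Rpl4 of the peptide exit tunnel (752 ± 104) and Rps21 (748 ± 111). Rplp1 and Rps12, Rps12 and Rps15, and Rpl4 and Rps21 each differed by less than the sum of their SDs. With the union of all exons as length the median was 124 CPM per kb, and the 2 orders had a Spearman correlation of 0.90 across genes. The rank of a single gene could still depend on the length used. Rps12 went from rank 2 to rank 16 (271 CPM per kb), while Rplp1 stayed at rank 1. Rps15 went from rank 3 to 2, Rpl4 from 5 to 4 and Rps21 from 6 to 10.

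**Figure D1:**
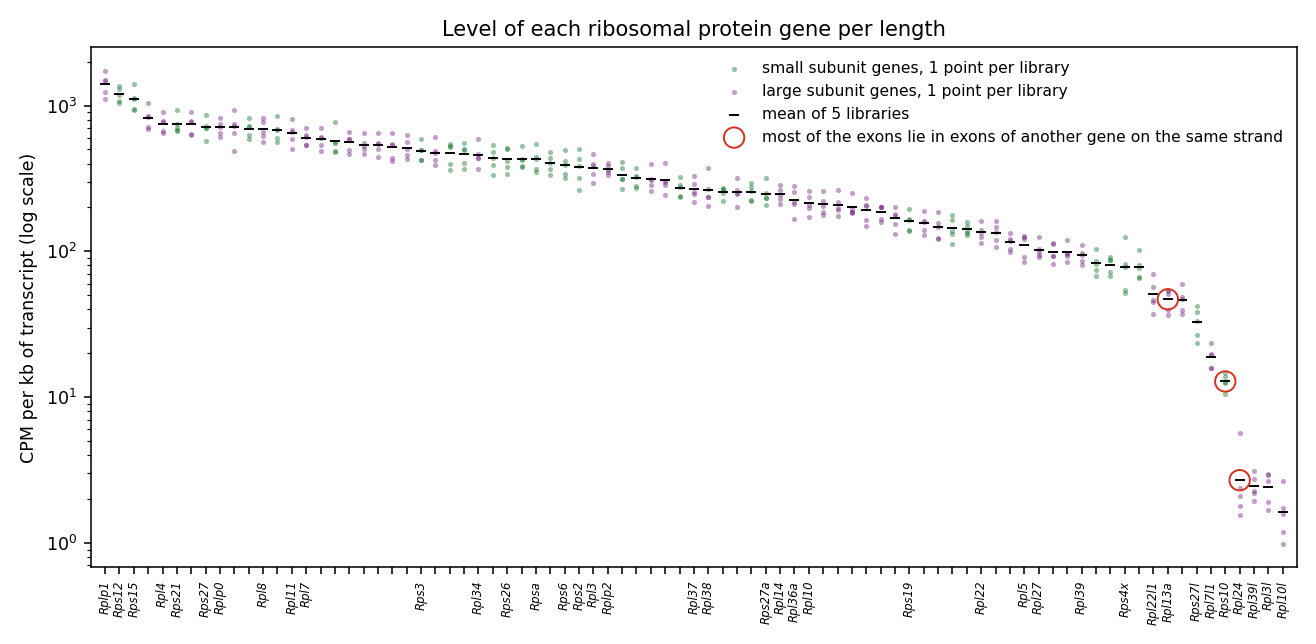
Level of each of the 83 ribosomal protein genes in CPM per kb of transcript (log scale), ordered by the mean over 5 libraries, with 1 point per library, names on the genes that the text describes and red rings on genes whose exons lie mostly in exons of another gene on the same strand. Most genes lie between 100 and 1000 CPM per kb, and the paralogues Rpl39l, Rpl3l and Rpl10l lie at the bottom with Rpl24 at under 3 CPM per kb on average.

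At the low end stood paralogues of common subunits, some of them known from particular tissues, together with other subunits such as Rpl13a (46.9 CPM per kb). Rpl3l, the muscle paralogue of Rpl3, averaged 2.43 CPM per kb, against 376 for Rpl3, and Rpl39l and Rpl10l, known from testis, averaged 2.46 and 1.63, against 93.9 for Rpl39 and 214 for Rpl10. All 3 lay within 1.53 times the background. Rpl7l1 averaged 18.9 CPM per kb, against 604 for Rpl7, Rps27l 32.8, against 711 for Rps27, and Rpl22l1 50.9, against 135 for Rpl22, so these paralogues were expressed in every library but below their parent genes. The annotation lists Rps4l as a pseudogene, so it is not a member.

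Rpl24, Rps10 and Rpl13a had low counts for genes of near universal use, and in the annotation 71.5%, 66.7% and 59.3% of their exon bases lie in exons of another gene on the same strand (Gm28037, RPS10-NUDT3, and Gm45713 with Mir5121). Those partner genes were listed at 0 counts in all 5 libraries. Rpl24 had 8, 8 and 6 counts in Fli1 KO libraries, against 22 and 5 in NTC libraries, and lay at 1.18 times background. Rps10 lay at 2.55 times background and Rpl13a at 15.1 times. The sources used here do not say whether counting left out reads that 2 genes share, so levels of these 3 genes are uncertain. The family also has many processed copies in the genome. At the median 49.4% of a gene's 50-base words recur, on either strand, in a transcript of another gene. Of the 83 genes, 41 share over 50% of them, and 3 share none. That share takes in any other gene, also one that overlaps, so it is not a measure of processed copies alone.

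The share of counts taken by the family differed between the groups by less than the spread between libraries. Its genes held 2.82%, 2.25% and 2.53% of all counts in Fli1 KO 1 to 3, against 2.81% and 2.19% in NTC 1 and 2. The means were 2.53% ± 0.285 (SD, n = 3) and 2.50% ± 0.432 (SD, n = 2), a difference of 0.031 percentage points (two-sided exact permutation test, p = 0.7). With 3 against 2 libraries the smallest p this test can give is 0.1. The difference took the other sign without Fli1 KO 1 (−0.11) and without NTC 2 (−0.27), and was 0.34 without NTC 1.

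The proportion of small to large subunit transcripts also differed by less than that spread. The log2 ratio of summed small to summed large subunit counts was −0.49, −0.52 and −0.51 in Fli1 KO 1 to 3, against −0.52 and −0.50 in NTC 1 and 2. The groups overlapped and their means differed by 0.00040 (exact permutation test, p = 1). Separately, small subunit genes held 1.17%, 0.923% and 1.04% of counts in Fli1 KO, against 1.15% and 0.910% in NTC, and large subunit genes held 1.64%, 1.33% and 1.48% in Fli1 KO, against 1.65% and 1.28% in NTC.

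A group of 4 predicted genes (Gm10800, Gm10801, Gm10717 and Gm10718) took 18.1%, 19.3% and 16.3% of all counts in Fli1 KO and 12.1% and 22.3% in NTC. Without them in the total, the ribosomal protein share was 3.44%, 2.79% and 3.02% in Fli1 KO, against 3.19% and 2.83% in NTC, and again overlapped (exact permutation test, p = 1).

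Between libraries the family moved up and down as a block. On the TMM scale 72 of 81 tested genes were highest in Fli1 KO 1, and 57 were lowest in NTC 2 and 23 in Fli1 KO 2. The median level was 298, 218 and 265 CPM in Fli1 KO 1 to 3, against 256 and 207 CPM in NTC 1 and 2. Of the 81 genes, 80 were higher in Fli1 KO 1 than in Fli1 KO 2, and 79 were higher in NTC 1 than in NTC 2. The largest median log2 ratio between libraries of 1 group was 0.45 (Fli1 KO 1 over Fli1 KO 2), while Fli1 KO 3 over NTC 1, across groups, gave −0.00022. Libraries of 1 group could therefore differ by more than the median log2 fold change between the groups, which was 0.16. Summed over 2788 other protein-coding genes within the 10th to 90th percentile of the family's CPM, libraries ranked the same way within each group. The sums were 440993, 383442 and 425920 CPM in Fli1 KO 1 to 3, against 393100 and 346626 CPM in NTC 1 and 2. That order was thus not particular to the family.

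**Figure D2:**
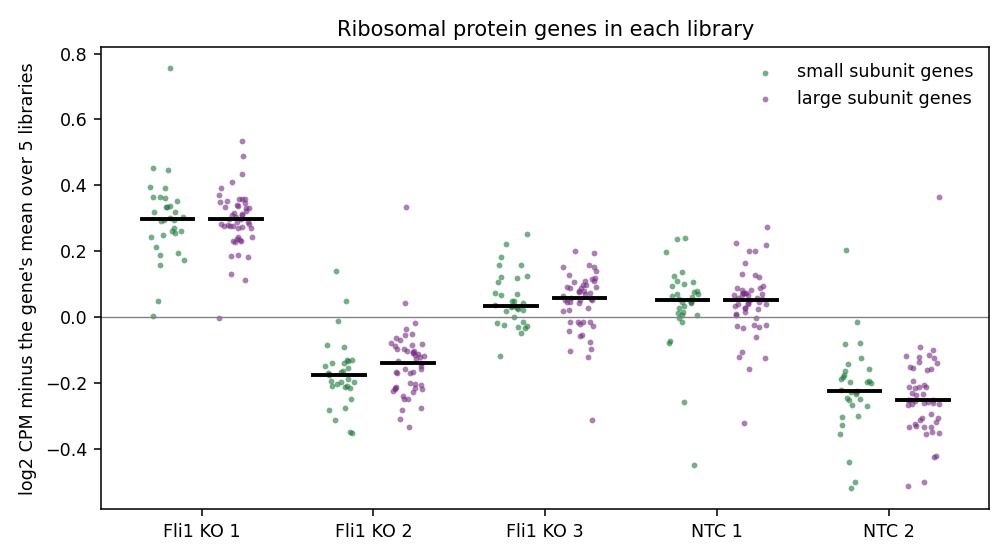
Log2 CPM of each tested ribosomal protein gene minus its own mean over the 5 libraries, with small subunit genes (32) and large subunit genes (49) side by side and bars at the medians. Fli1 KO 1 lies highest, Fli1 KO 2 and NTC 2 lie low, and Fli1 KO 3 and NTC 1 lie together near 0, with small and large subunit genes alike in each library.

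The summed level of the 12 NK markers, which include the abundant Gzma, Gzmb and Prf1, ranked the libraries within each group the same way, at 13670, 9239 and 11859 CPM in Fli1 KO 1 to 3, against 9935 and 6727 CPM in NTC 1 and 2. That sum is carried by a few genes. Of the 12, 7 had log2 fold changes above 0 and 0 were called, with an unadjusted p under 0.05 for 4 higher and 2 lower. Klrk1, an activating receptor, had 327, 323 and 325 CPM in Fli1 KO, against 387 and 394 CPM in NTC, and Tbx21, a transcription factor of NK cells, had 75.9, 68.5 and 73.6 CPM in Fli1 KO, against 95.2 and 107 CPM in NTC. In every Fli1 KO library each lay below its level in both NTC libraries, and each was higher in NTC 2 than in NTC 1. In Prf1 and Il2rb every Fli1 KO library lay above both NTC libraries. Prf1 had 1623, 1017 and 1395 CPM in Fli1 KO, against 923 and 550 CPM in NTC. Il2rb had 2146, 1735 and 2033 CPM in Fli1 KO, against 1505 and 1291 CPM in NTC. Of the 12, the groups lay apart in 2 higher and 3 lower, against 11.9% and 13.7% of all tested genes. Counts on genes annotated as antisense ran at 0.711%, 0.854% and 0.772% in Fli1 KO, against 0.897% and 0.904% in NTC, and processed pseudogenes at 0.875%, 1.07% and 0.957% in Fli1 KO, against 1.12% and 1.10% in NTC. The part of these measures in the ribosomal protein levels was not tested. Fewer cells of a type and less RNA per cell cannot be told apart in such bulk libraries.

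The comparison of Fli1 KO with NTC asks whether editing an ETS factor alters the transcripts of the ribosome. One gene of the family, Rps4x, rose in Fli1 KO and none fell, by an adjusted p under 0.05 in edgeR's quasi-likelihood test (Benjamini-Hochberg over all 30580 tested genes). The same test called 0.458% of all tested genes higher and 0.0883% lower. A single call among 81 genes lies close to that background and is not read as a result about the family. An unadjusted p under 0.05 was reached by 8 genes of the family with higher levels and by 0 with lower levels, against 5.23% and 3.71% of all genes. In 8 genes every Fli1 KO library lay above both NTC libraries, and in 1 gene below both, against 11.9% and 13.7% of all tested genes. The family lies at higher levels than most tested genes. Among 2788 other protein-coding genes within the 10th to 90th percentile of its CPM, 543 were higher and 54 lower at an unadjusted p under 0.05. In those 2788 genes the groups lay apart in 899 higher and 182 lower. Neither count is read as a result about the family.

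Most genes of the family had small positive log2 fold changes. Of 81, 72 lay above 0, against 47.6% of all tested genes; 62 lay between 0 and 0.3, and 42 exceeded their own SE. The median log2 fold change was 0.16 for the family, 0.16 for the small subunit and 0.17 for the large subunit, against −0.018 for all tested genes. Other protein-coding genes within the 10th to 90th percentile of the family's CPM had a median of 0.14 (2788 genes, of which 2139 lay above 0 and 70 were called higher and 9 lower). With libraries scaled by their total alone, the median of all genes moved to −0.14 and those of the small and large subunits to 0.020 and 0.034, a shift that this scaling gives all genes alike. The distance between the medians of the subunits and of all genes, 0.17 and 0.19 on the TMM scale, fell to 0.014 and 0.057 without Fli1 KO 1 and to 0.027 and 0.033 without NTC 2, and rose to 0.29 and 0.31 without Fli1 KO 2 and to 0.31 and 0.35 without NTC 1.

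**Figure D3:**
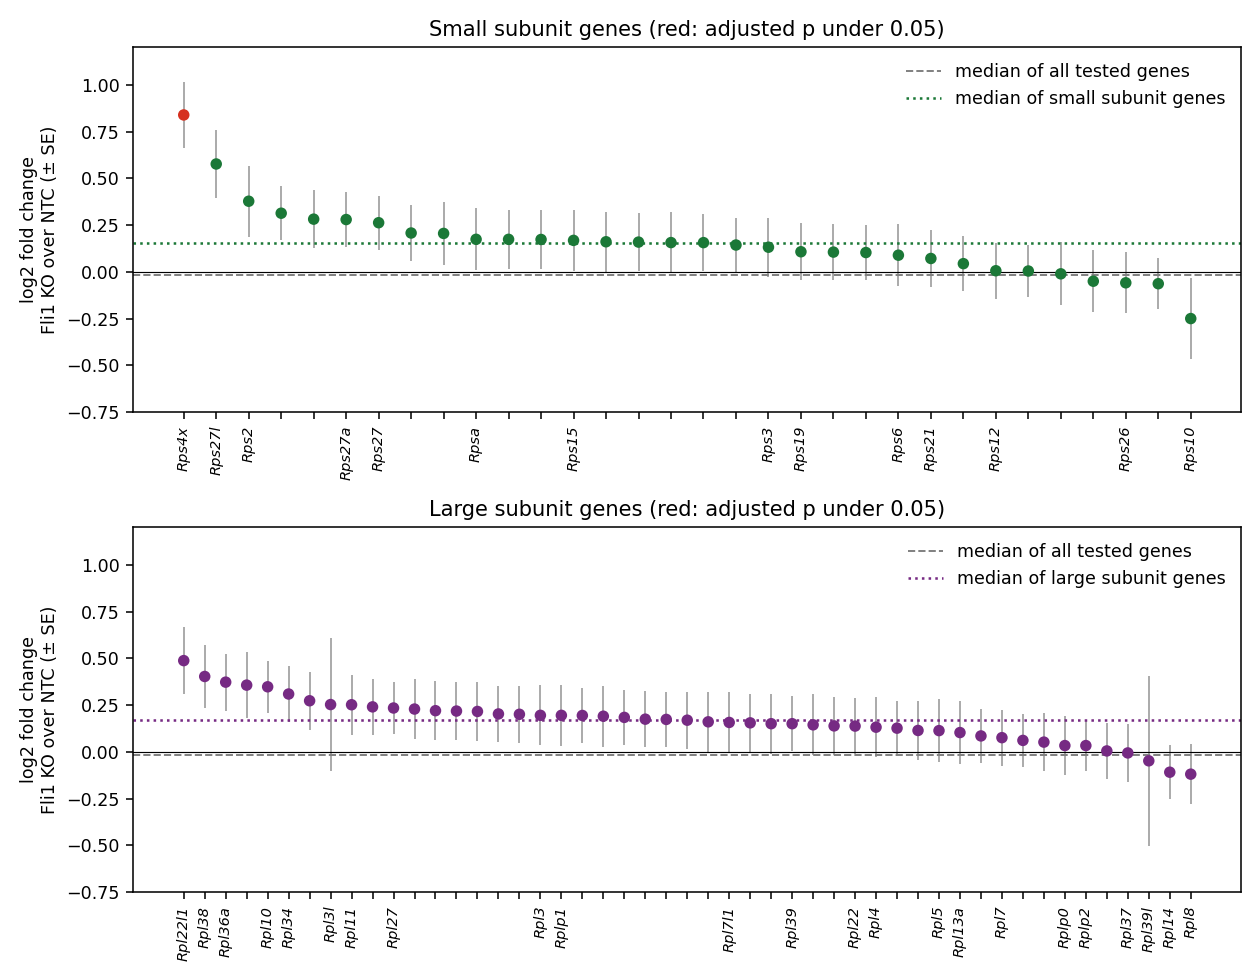
Log2 fold change of Fli1 KO over NTC with its SE for the 32 small and 49 large subunit genes tested, in order of size, with names on the genes that the text describes. Rps4x at 0.84 is the 1 gene with an adjusted p under 0.05 (red), Rps27l and Rpl22l1 come next, and most other genes lie close to the medians of 0.16 and 0.17.

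Rps4x encodes a small subunit protein, lies on the X chromosome and has Y-linked relatives in human (ENSMUSG00000031320, GRCm38 chrX:102184941-102189394, minus strand). It had 122, 79.9 and 76.2 CPM in Fli1 KO 1 to 3, against 53.1 and 50.6 CPM in NTC 1 and 2 (606, 448 and 378 counts, against 306 and 242). Every Fli1 KO library lay above both NTC libraries, and the mean was 92.8 ± 25.6 CPM (SD, n = 3) in Fli1 KO and 51.8 ± 1.77 CPM (SD, n = 2) in NTC. The log2 fold change was 0.84 (SE 0.18, fold 1.79, edgeR adjusted p = 0.0341). Relative to all other ribosomal protein genes of its own library, its log2 ratio was −7.99, −8.14 and −8.43 in Fli1 KO, against −8.96 and −8.74 in NTC, a description in the same libraries in which the gene was called.

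The call for Rps4x lies near the threshold. It was kept by DESeq2 (adjusted p = 0.0133), and by edgeR with upper quartile factors (0.0149), with scaling by total (0.0297) and without Fli1 KO 2 (0.0216). It was lost without Fli1 KO 1 (log2 fold change 0.60, adjusted p = 0.245), without Fli1 KO 3 (0.98, 0.0548) and without NTC 2 (0.81, 0.0515), and with a stricter filter, with limma-voom or with libraries scaled to the summed family. Of its 50-base words 72.25% recur in 11 other genes, whose summed counts were 49, 46 and 46 in Fli1 KO, against 60 and 42 in NTC, well below the counts of Rps4x itself. The sources used here do not say how reads that match several places were counted, so counts on those genes may not reflect their levels.

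The 4 X-linked genes of the family, singled out after their values were seen, had log2 fold changes of 0.84 (Rps4x), 0.37 (Rpl36a), 0.35 (Rpl10) and 0.15 (Rpl39). Their median was 0.36, against 0.16 for the 77 tested on autosomes. Other X-linked protein-coding genes at a similar level had a median of 0.14 (60 genes, 0 called higher or lower).

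Rps27l, a paralogue of Rps27 that p53 induces, had the second largest log2 fold change. It had 24.2, 19.1 and 22.0 CPM in Fli1 KO, against 15.4 and 13.6 CPM in NTC. The groups did not overlap, but the log2 fold change of 0.58 (SE 0.18) did not pass (edgeR adjusted p = 0.247). Its parent Rps27 had 298, 241 and 248 CPM in Fli1 KO, against 241 and 197 CPM in NTC, with Fli1 KO 2 just above NTC 1 (log2 fold change 0.26, SE 0.14, adjusted p = 0.625). Of the 50-base words of Rps27, 98.7% recur in other genes, against 13.7% for Rps27l.

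Rpl22l1 is the paralogue of Rpl22, whose loss in mice blocks the development of alpha-beta T cells. It had 38.5, 25.5 and 31.4 CPM in Fli1 KO, against 24.6 and 20.5 CPM in NTC, a log2 fold change of 0.49 (SE 0.18, edgeR adjusted p = 0.367). Fli1 KO 2 lay less than 1 CPM above NTC 1. Rpl22 itself had 334, 256 and 272 CPM in Fli1 KO, against 288 and 234 CPM in NTC, and the groups overlapped (0.14, SE 0.15, adjusted p = 0.849). Exons of Rpl22l1 overlap Gm33051 on the other strand over 28.8% of their bases, and the strand setting of the counts is not given.

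**Figure D4:**
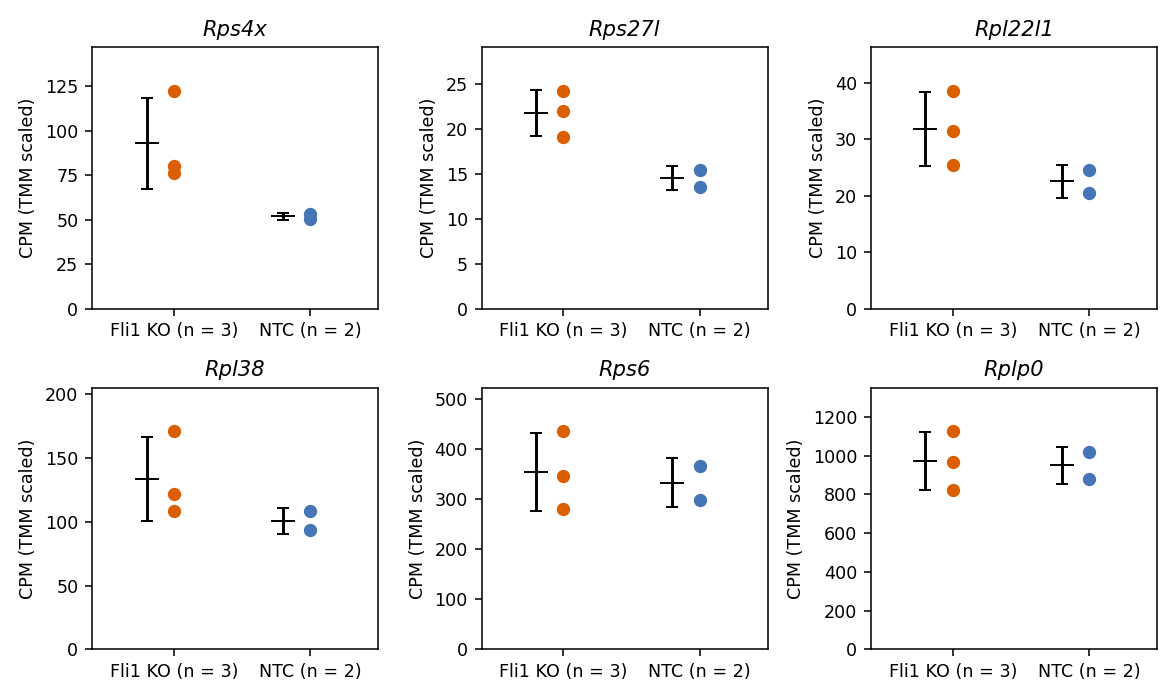
CPM (TMM scaled) of 6 ribosomal protein genes in the 3 Fli1 KO and 2 NTC libraries, with group means and SDs. Rps4x, Rps27l, Rpl22l1 and Rpl38 have every Fli1 KO library above both NTC libraries, and in Rps6 and Rplp0 the groups overlap.

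The remaining genes whose groups lay apart were Rpl38, Rpl10, Rpl34, Rpl27 and Rps27 above and Rps10 below. Rpl38, which mice need for the translation of Hox mRNAs, had 171, 122 and 108 CPM in Fli1 KO, against 108 and 93.6 CPM in NTC (log2 fold change 0.40, SE 0.17, edgeR adjusted p = 0.456). Fli1 KO 1 stood furthest out, and Fli1 KO 3 and NTC 1 were nearly equal. Rpl10, which joins the large subunit late and lies near the GTPase centre, had 221, 179 and 201 CPM in Fli1 KO, against 169 and 146 CPM in NTC (0.35, SE 0.14, adjusted p = 0.427). Rpl34 had a log2 fold change of 0.31 and Rpl27 one of 0.23; both are named for their separation alone. Rps10, a protein of the small subunit head that is ubiquitylated when ribosomes collide, had 9.08, 7.49 and 8.87 CPM in Fli1 KO, against 9.71 and 10.5 CPM in NTC (−0.25, SE 0.22, adjusted p = 0.797), from no more than 56 counts in any library.

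Among other subunits with large fold changes the groups overlapped. Rpl36a, which lies near the exit site for tRNA, had 136, 101 and 123 CPM in Fli1 KO, against 105 and 80.2 CPM in NTC (log2 fold change 0.37, SE 0.15, edgeR adjusted p = 0.446). Rps2, at the mRNA entry channel, had 486, 308 and 416 CPM in Fli1 KO, against 368 and 252 CPM in NTC (0.38, SE 0.19, adjusted p = 0.589). For both, Fli1 KO 2 lay below NTC 1. Toward the negative end lay Rpl8 (−0.12), Rpl14 (−0.11), Rps26 (−0.06) and Rpl37 (−0.0054), none of them beyond its SE. Rpl8, a protein near the peptidyl transferase centre, had 791, 573 and 678 CPM in Fli1 KO, against 843 and 635 CPM in NTC. Rpl14, Rpl8 and Rps26 took the other sign without NTC 1, and Rpl37 with DESeq2's size factors.

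By role in the ribosome, no further gene was called. Rpl5 and Rpl11, which carry 5S RNA into the large subunit and bind MDM2 when free, had log2 fold changes of 0.11 (SE 0.17) and 0.25 (SE 0.16). Rpl5 had 262, 188 and 248 CPM in Fli1 KO, against 256 and 174 CPM in NTC, and Rpl11 had 673, 492 and 569 CPM, against 550 and 420 CPM. In both, NTC 1 fell within the range of the Fli1 KO libraries.

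The P stalk and GTPase centre (5 genes) had a median of 0.20 with 0 called. Its base Rplp0 had 1125, 823 and 970 CPM in Fli1 KO, against 1019 and 881 CPM in NTC (0.034, SE 0.16, edgeR adjusted p = 0.978), the value of Rplp2 was also 0.034 (SE 0.14) and that of Rplp1 0.20 (SE 0.16). The shift of all genes under scaling by the total alone puts Rplp0 and Rplp2 below 0 (−0.10 and −0.097). The 8 proteins that line or ring the exit tunnel, among them Rpl4 (0.13) and Rpl39 (0.15), ranged from 0.0053 to 0.27 with 0 called.

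On the small subunit, Rps6, the target of the S6 kinases, had 435, 280 and 346 CPM in Fli1 KO, against 367 and 298 CPM in NTC, and the groups overlapped (0.089, SE 0.16, edgeR adjusted p = 0.930). The 10 genes of the head and platform had a median of 0.075, from −0.25 (Rps10) to 0.21, with 0 called. Within them Rps12, at 0.0057 (SE 0.15), took the other sign under 4 of the settings that keep all libraries, while Rpsa, also described as a laminin receptor, had 0.17 (SE 0.17). Rps3, at the entry channel and also described as a partner of NF-kappaB, had 0.13 (SE 0.16), and Rps27a, made as a fusion to ubiquitin, 0.28 (SE 0.15).

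Mutations of 18 of these genes are known in human Diamond-Blackfan anaemia. Their median was 0.11, with 0 called, and Rps19, the one most often mutated, had 250, 177 and 209 CPM in Fli1 KO, against 213 and 180 CPM in NTC (0.11, SE 0.15). The 30 genes that hold 58 snoRNA genes in their introns or exons had a median of 0.15. Fold changes had a Spearman correlation of 0.23 with the share of recurring 50-base words, −0.094 with transcript length and −0.0076 with level, as descriptions over the 81 genes, which share libraries and sequence.

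By promoter words most medians lay close together. The median log2 fold change was 0.16 with CGGAAG (41 tested genes) and 0.16 without (20 genes), and 0.16 with CCGGAAGT (12) and 0.16 without (49). It was 0.16 with a pyrimidine run (41) and 0.15 without (20), 0.16 with AAGATGGC (5) and 0.16 without (56), and 0.15 with CACGTG (5) and 0.16 without (56). The 6 genes with TATAAA had a median of 0.26, against 0.16 for the 55 without, a difference that was not tested.

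Genes that act with the ribosome had few calls. Of 7 partners and fused subunits outside the symbol rule 0 were called, and their median was 0.25. Fau had 323, 260 and 257 CPM in Fli1 KO, against 242 and 215 CPM in NTC (0.29, SE 0.14, edgeR adjusted p = 0.568). Rack1 had 1128, 701 and 904 CPM, against 819 and 717 CPM (0.25, SE 0.17, adjusted p = 0.731). The smallest p was that of Rpl36al, a copy of Rpl36a, at 7.46, 7.13 and 5.64 CPM in Fli1 KO, against 4.68 and 3.34 CPM in NTC (0.73, SE 0.28, adjusted p = 0.399).

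Among genes that serve the ribosome, 1 was called. Riok1, a kinase of late small subunit maturation, rose to 116, 96.5 and 112 CPM in Fli1 KO, against 67.8 and 73.3 CPM in NTC (0.62, SE 0.14, edgeR adjusted p = 0.0391), a call that was lost with libraries scaled by their total (adjusted p = 0.119), scaled to the summed family (0.656) and without Fli1 KO 1 (0.340), Fli1 KO 3 (0.407) or NTC 2 (0.0650). It was the 1 called of 40 genes of small subunit processing (median 0.10). Of 48 genes of large subunit processing and export 0 were called (median 0.084), and Rsl1d1, a nucleolar protein, was nearest at 0.56 (SE 0.15, adjusted p = 0.132); it was called without Fli1 KO 2 (0.70, adjusted p = 0.0284) and without NTC 1 (0.70, adjusted p = 0.0112). Synthesis of ribosomal RNA (19 genes, median 0.012, Taf1b nearest at 0.49 and adjusted p = 0.39), guides of pseudouridine formation (6, median 0.043, Nhp2 at 0.23 and adjusted p = 0.764) and chaperones of ribosomal proteins (10, median 0.059, Aamp at 0.32 and adjusted p = 0.557) also had 0 called.

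Translation elongation factors (11 genes) had a median of 0.19 and 0 called. Eef1a1, which brings tRNA to the ribosome, had 0.19 (SE 0.17), Eef2, which moves the ribosome along, −0.023 (SE 0.17), and the termination factor Etf1 had the smallest p (0.32, SE 0.14, edgeR adjusted p = 0.495). Other mRNAs of the TOP class (14 genes) had a median of 0.079 and 0 called. Nearest was Pabpc1, the poly(A)-binding protein, at 672, 508 and 513 CPM in Fli1 KO, against 371 and 374 CPM in NTC (0.60, SE 0.15, adjusted p = 0.0884). Pabpc1 was called by DESeq2 (adjusted p = 0.0318), and by edgeR with upper quartile factors (0.0364) and with no filter (0.0161). It was not called by edgeR with scaling by total (adjusted p = 0.202) or to the summed family (0.561). Nor was it called without Fli1 KO 1 (0.597) or Fli1 KO 3 (0.413). Its log2 fold change was 0.61 without NTC 1 and 0.61 without NTC 2. S6 kinases (9 genes, median 0.023, Rps6ka1 at 0.25 and adjusted p = 0.647) and sensors of stalled ribosomes (18 genes, median 0.049, Map3k20 at −0.33 and adjusted p = 0.602) had 0 called. Mitochondrial ribosomal proteins (77 tested of 78) had a median of 0.081 and 0 called, with Mrpl21 nearest at 0.55 (SE 0.20, adjusted p = 0.351).

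**Figure D5:**
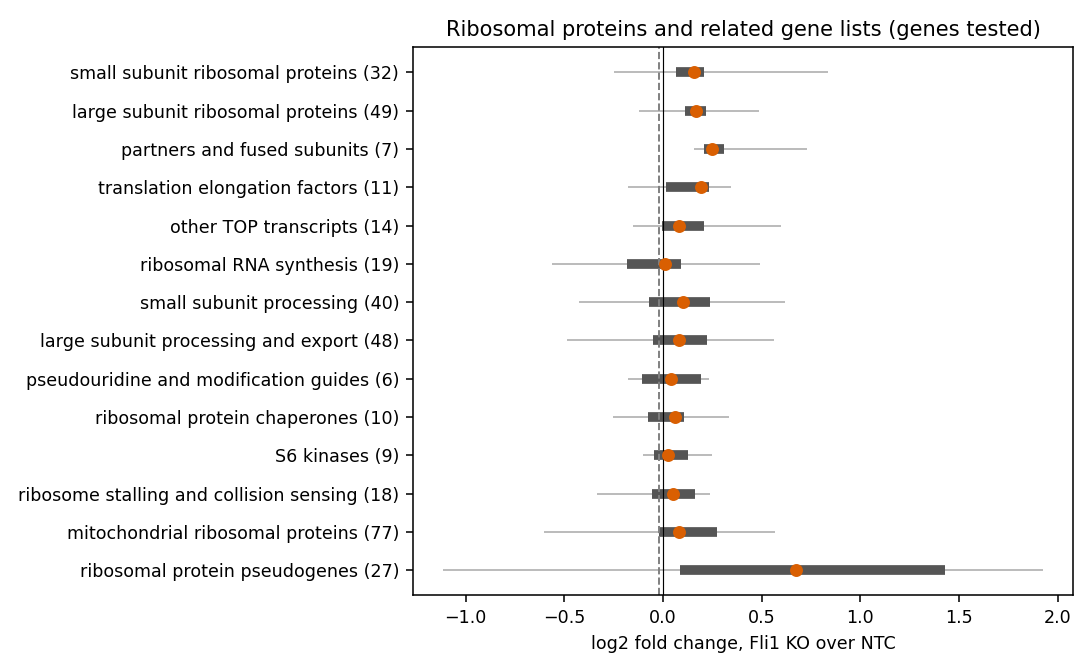
Log2 fold change of Fli1 KO over NTC for the small and large subunit genes and 12 lists of related genes, with the number tested in brackets. Points are medians, thick lines the quartiles and thin lines the full range; the dashed line marks the median of all tested genes at −0.018. The medians lie between 0.012 and 0.25 except that of the ribosomal protein pseudogenes (0.68), of which 27 of 300 were tested.

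Processed copies of ribosomal protein genes with pseudogene symbols (300 genes) together had 1277, 1338 and 1184 counts in Fli1 KO, against 1299 and 1004 counts in NTC, while the 83 genes themselves had 154689, 126889 and 130515 counts, against 152786 and 103562. Summed over all copies, counts therefore stayed far below the sum on the genes in every library. That need not hold gene by gene. Genes that share 50-base words with Rpl24 had 68, 90 and 63 counts in Fli1 KO and 84 and 67 in NTC, more than Rpl24 itself. Those that share words with Rpl36a had 304, 335 and 345 counts in Fli1 KO and 360 and 319 in NTC. Rpl36a itself had 672, 568 and 613 counts in Fli1 KO and 605 and 384 in NTC. The 27 copies with enough counts to be tested had 405, 330 and 346 counts in Fli1 KO, against 298 and 205 in NTC, and the other 273 had 872, 1008 and 838 counts in Fli1 KO, against 1001 and 799 in NTC. Of the 27, 22 had log2 fold changes above 0, with a median of 0.68 and a median SE of 0.51. None was called by edgeR. An unadjusted p under 0.05 was reached by 9 higher and 0 lower, against 5.23% and 3.71% of all tested genes. The groups lay apart in 11 higher and 1 lower, against 11.9% and 13.7% of all tested genes. A copy can pass the filter through the group in which it is high, and the mean level of these copies was 1.92 CPM at the median. The median and counts of the 27 are therefore not read as a result about the copies. The sources used here do not say how reads that match several places were counted.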

How the data were processed

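RNA of splenic NK cells was measured in 3 Fli1 KO and 2 NTC libraries, grouped by their labels. Per the submitters' processing notes, FastQC 0.12.0, Trimmomatic 0.39, STAR 2.7.11 and mm10 were used; the sources used here do not name the counter, its strand setting or the annotation release. The authors deposited raw counts per Ensembl gene ID, not normalized; 0 columns were left unmapped. Of 56691 IDs, 52073 (91.9%) matched a symbol. Gene types, positions and lengths came from GENCODE M21 (GRCm38), promoters from RefSeq.

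Fli1 KO was compared with NTC by edgeR 4.0.16 (R 4.3.3; robust quasi-likelihood test, TMM, filterByExpr with a minimum of 10 counts), with Benjamini-Hochberg adjustment over all 30580 tested of the 52871 genes with any count. The common biological coefficient of variation was 0.120. Per kb levels use the transcript with the longest coding sequence. The fit was tested on simulated data. DESeq2 1.42.0, limma-voom (limma 3.58.1), other scalings and filters, a replicate block and each library left out were tried.

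The members and lists were chosen with earlier results of these data known. The text names called genes, the 6 smallest p-values, the 3 largest and 3 smallest fold changes (mean of at least 5 CPM) and the 3 highest and 3 lowest per kb levels in each subunit, and fixed genes known for their roles, 39 in all, some of which are not reported here; per list it names up to 2 called genes or the 1 with the smallest p. Rpl34, Rpl27, Rpl24, Rpl41, Fau, Rack1, Eef1a1 and Eef2 were named in addition.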

Additional observations from a re-analysis of the deposited data

How the results depend on the processing

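The number of calls over all genes was 167 (140 higher, 27 lower). It was 295 with no filter and 921 with the replicate block (728 higher, 193 lower), and ran from 49 to 877 when 1 library was left out. With libraries scaled by their total alone the split was 92 higher and 71 lower, and scaled to the summed family 93 and 56, a setting added after seeing the data. Where leaving out a library leaves 1 NTC library, its spread is taken from the Fli1 KO libraries.

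Calls in the family, 1 at first, came to 0 with a filter of 5 CPM in 2 libraries, with limma-voom and with scaling to the summed family, to 0 to 4 when 1 library was left out (4 without NTC 1: Rpl36a, Rpl41, Rps2 and Rps4x, where 2.14% of all genes were called higher), and to 6 with the replicate block (Rpl22l1, Rpl34, Rpl38, Rpl41, Rps2 and Rps4x, all higher, against 2.38% of all genes). Outside the family the block also called Pabpc1 (adjusted p = 3.41e-07), Rsl1d1 (0.00103) and Taf1b (0.0193). Numbers 1 and 2 were not shown to pair the libraries: deviations of same-numbered libraries correlated at 0.069 and 0.14. With the replicate block the difference in share was 0.033 and that in the small to large ratio 0.0026.

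The difference in share ran from −0.27 to 0.34 when 1 library was left out. The difference in the small to large ratio was −0.013 with each gene weighted equally and −0.0081 without the 3 genes with most counts, and ran from −0.0099 to 0.010 when 1 library was left out. No median of a subunit changed sign.

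Log2 fold changes of some named genes took the other sign. Scaled by total alone, which shifts all genes alike, they were Rpl13a −0.032, Rpl4 −0.0034, Rpl5 −0.024, Rpl7 −0.058, Rplp0 −0.10, Rplp2 −0.097, Rps12 −0.13, Rps19 −0.029, Rps21 −0.064, Rps3 −0.0044 and Rps6 −0.050. Scaled to the summed family they were Rpl13a −0.029, Rpl22 −0.0075, Rpl4 −0.018, Rpl5 −0.023, Rpl7 −0.074, Rplp0 −0.12, Rplp2 −0.11, Rps12 −0.14, Rps19 −0.047, Rps20 −0.0015, Rps21 −0.091, Rps3 −0.023 and Rps6 −0.070. Rpl37 was 0.015 with DESeq2, 0.014 with its size factors, 0.011 with no filter and 0.0075 with the replicate block. Rps12 was −0.015 with upper quartile factors and −0.020 with the 5 CPM filter, and Rpl39l 0.0015 with limma-voom.

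With 1 library left out the ranges were Rpl13a −0.13 to 0.43, Rpl14 −0.25 to 0.075, Rpl37 −0.17 to 0.14, Rpl39l −0.35 to 0.31, Rpl3l −0.0086 to 0.66, Rpl5 −0.13 to 0.44, Rpl7 −0.029 to 0.22, Rpl8 −0.30 to 0.12, Rplp0 −0.074 to 0.16, Rplp2 −0.058 to 0.16, Rps12 −0.12 to 0.17, Rps19 −0.019 to 0.25, Rps20 −0.020 to 0.32, Rps21 −0.095 to 0.18, Rps26 −0.24 to 0.18 and Rps6 −0.078 to 0.27. The causes were not tested. At this depth Rpl10l, Rpl24, Rpl3l, Rpl39l and Rps10 had at most 56 counts in a library, which limits what can be said of them.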
